A study of Mus musculus with 6 samples.

Results

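The 7 genes described here build the protein uptake route of the renal proximal tubule, and their transcripts were followed in obstructed kidneys of mice without Dkk3. They are the rows listed as Lrp2, Cubn, Amn, Dab2, Clcn5, Ocrl and Lrpap1 among the 18421 genes of the authors' deposited table, chosen by symbol, and each symbol matched 1 row. Whole kidneys of 3 Dkk3-/- mice and of 3 C57Bl/6 mice with intact Dkk3 were taken 7 days after unilateral ureteral obstruction, an operation that closes a ureter so that pressure builds up in the kidney and its tubules atrophy. Both groups carry C57Bl/6 as their background strain in the labels, all mice were obstructed, and neither age nor sex, nor whether the groups were littermates, is given there. The product of Dkk3 is a secreted dickkopf-family glycoprotein, and the comparison asks what its loss changes in the obstructed kidney.

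Albumin, vitamin-binding proteins, hormones and enzymes that pass the glomerular filter are taken back by the proximal tubule. They bind to 2 giant receptors in the brush border, megalin (encoded by Lrp2) and cubilin (Cubn). Cubilin has no membrane anchor of its own and reaches the surface with amnionless (Amn). The adaptor Dab2 couples megalin to clathrin coats. In the endosome, where acid releases the cargo, the chloride and proton exchanger encoded by Clcn5 serves acidification and the phosphoinositide phosphatase encoded by Ocrl serves sorting. The chaperone encoded by Lrpap1, known as receptor-associated protein, keeps newly made megalin from binding ligands too early. In humans, inherited loss of either endosomal function leads to loss of small proteins in the urine, as in Dent disease (CLCN5) and Lowe syndrome (OCRL).

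The files hold 1 test result per gene and no value per mouse, so the spread over single mice and the depth of each library are unknown. The table gives a log2 fold change, an average over the 6 libraries as the log2 of counts scaled to library size, in CPM, and edgeR's likelihood-ratio statistic with its p and false discovery rate (FDR). Fold changes are given as knockout over wild type, a direction read from Dkk3, which stood at -4.43 on the log2 scale in the authors' deposited table (FDR = 2.98e-67). The standard error (SE) of each fold change was approximated from the fold change and the square root of the statistic, as their quotient, and an interval as the fold change ± 1.96 SE.

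None of the 7 genes passed an FDR of 0.05 in edgeR's test, and none had a raw p under 0.05. Over the whole authors' deposited table these shares were 2.06% (0.890% lower and 1.17% higher in the knockout) and 10.6%. In the gene lists below, a gene is said to rise or fall where it passed an FDR of 0.05. All 7 log2 fold changes were below 0, with a median of -0.08, against a median of 0.01 over all genes, of which 47.7% were below 0. The large receptor genes Lrp2 and Cubn stood at -0.47 and -0.41, and the other 5 between -0.18 and -0.01, in the authors' deposited table. The intervals of the 7 overlap, and a difference between members was not tested. Every interval spans 0. In whole kidney, fewer proximal tubule cells and less RNA per cell cannot be told apart.

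**Figure D1:**
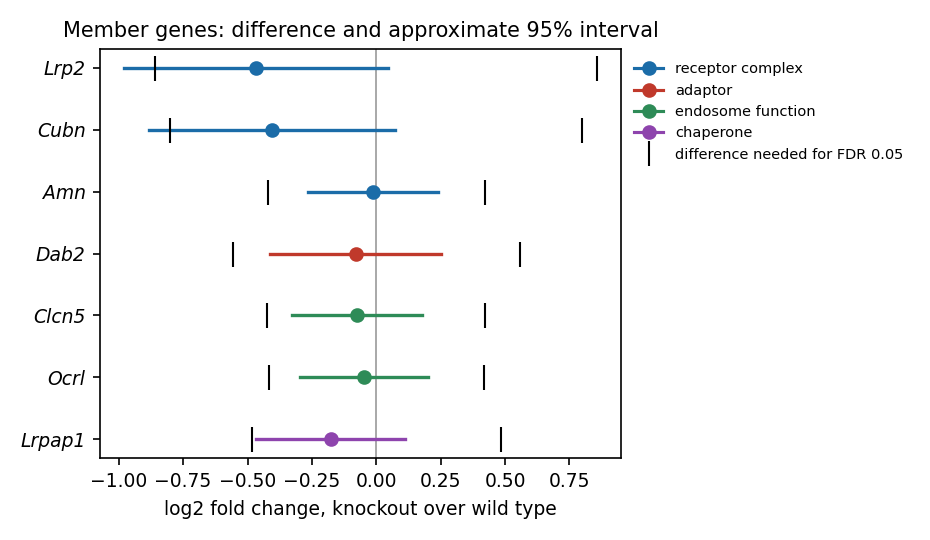
Log2 fold change of each member gene, knockout over wild type (x axis), with its approximate 95% interval (horizontal line), coloured by role. Black ticks mark the difference that a gene of that SE would need to pass an FDR of 0.05. All 7 intervals span 0 and all 7 points lie inside their ticks, those of Lrp2 and Cubn farthest to the left.

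The large receptor genes Lrp2 and Cubn showed the largest differences of the set, within wide errors. Lrp2 (ENSMUSG00000027070; GRCm38 chromosome 2, 69424340 to 69586065, minus strand, 79 exons in its longest coding transcript) had a log2 fold change of -0.47 in the authors' deposited table (FDR = 0.558). This is a level 27.7% lower in the knockout, with an interval from 49.3% lower to 3.12% higher. Cubn (ENSMUSG00000026726; chromosome 2, 13276338 to 13491813, minus strand, 67 exons), 55.9 Mb away on the same chromosome, stood at -0.41 in the authors' deposited table (FDR = 0.609), with an interval from 45.7% lower to 5.12% higher. Amn (ENSMUSG00000021278; chromosome 12, 111271095 to 111276426, plus strand, 12 exons), cubilin's membrane partner, stood at -0.01 in that table (FDR = 1.00), with an interval from 16.7% lower to 18.1% higher. Its interval overlaps those of both receptors. A test of Amn against the receptors needs values per mouse and was not run.

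Across the authors' deposited table, 8.95% of genes had a lower log2 fold change than Lrp2 and 10.2% a lower one than Cubn. Among genes within 0.5 log2 CPM of their own abundance the shares were 5.80% of 138 genes for Lrp2 and 2.88% of 1043 genes for Cubn. For Amn 48.5% of 2193 genes of like abundance were lower, close to the middle. These shares are descriptions, since the spread of single genes differs with their error.

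The promoters of the receptor complex are shown because these genes span the range of differences among the members, from Lrp2 at the low end to Amn nearest 0. Each is the 250 bases before the RefSeq start of the gene (GRCm38.p6), 5′ to 3′ on the gene's strand, with capitals where a script found 1 of 4 short motifs on either strand.
Lrp2, chr2:69586030-69586279, minus strand: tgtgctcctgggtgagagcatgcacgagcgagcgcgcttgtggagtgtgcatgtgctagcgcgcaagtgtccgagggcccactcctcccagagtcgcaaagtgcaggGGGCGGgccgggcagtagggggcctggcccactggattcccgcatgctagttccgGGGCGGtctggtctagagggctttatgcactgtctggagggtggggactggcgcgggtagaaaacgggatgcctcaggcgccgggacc
Cubn, chr2:13491877-13492126, minus strand: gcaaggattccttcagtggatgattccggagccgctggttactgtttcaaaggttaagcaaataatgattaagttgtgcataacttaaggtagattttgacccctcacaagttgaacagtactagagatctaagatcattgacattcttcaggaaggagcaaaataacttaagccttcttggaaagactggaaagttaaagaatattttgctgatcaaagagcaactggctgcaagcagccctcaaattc
Amn, chr12:111270846-111271095, plus strand: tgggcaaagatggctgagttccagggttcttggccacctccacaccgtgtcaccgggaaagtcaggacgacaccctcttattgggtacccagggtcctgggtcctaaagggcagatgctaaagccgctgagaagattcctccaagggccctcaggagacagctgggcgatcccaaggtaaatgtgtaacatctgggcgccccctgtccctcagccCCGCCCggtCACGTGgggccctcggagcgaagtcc
The motifs searched were the GC box GGGCGG, the E-box CACGTG, the TATA box TATAAA and the half-site AGGTCA of nuclear receptors. Windows of 300 bases, 250 before and 50 after the start, were scored, and no match overlapped another in the 3 sequences shown. The Lrp2 window held 2 GC boxes, 143 and 88 bases before the start, and the Amn window held a GC box and an E-box 35 and 26 bases before it. The Cubn window held none of the 4. GC boxes occur in 35.7% of the 32851 RefSeq windows, and E-boxes in 7.15%. The Lrp2 window had 20 CpG dinucleotides, the Amn window 15 and the Cubn window 5, against a median of 7 over all windows. The nuclear receptor half-site, held by 16.3% of windows, was matched in none of the 9 member windows, and a TATA box, held by 13.6%, in 1, at Clcn5. In the other members GC boxes were matched in windows of Clcn5, Lrpap1 and Ocrl. These matches are descriptions of letters.

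The adaptor and the chaperone lay closer to 0. Dab2 (ENSMUSG00000022150; chromosome 15, 6299788 to 6440712, plus strand) had a log2 fold change of -0.08 in the authors' deposited table (FDR = 0.962), with an interval from 24.9% lower to 19.1% higher. Dab2 is also a gene of macrophages and other non-tubular cells, and none of 17 macrophage markers passed an FDR of 0.05 in edgeR's test, while 15 of the 17 were above 0, 8 had a raw p under 0.05 and their median log2 fold change was 0.41. Their part in the Dab2 value was not tested. Lrpap1 (ENSMUSG00000029103; chromosome 5, 35091501 to 35105766, minus strand), which many cell types express, stood at -0.18 in the authors' deposited table (FDR = 0.757), 11.6% lower in the knockout with an interval from 27.6% lower to 7.98% higher.

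Both endosomal genes are on the X chromosome and both were near 0. Clcn5 (ENSMUSG00000004317; chromosome X, 7153810 to 7319358, minus strand) had a log2 fold change of -0.08 in the authors' deposited table (FDR = 0.944), with an interval from 20.4% lower to 13.0% higher. Ocrl (ENSMUSG00000001173; chromosome X, 47912387 to 47965868, plus strand) stood at -0.05 in the authors' deposited table (FDR = 0.971), with an interval from 18.6% lower to 15.0% higher. As the labels give no sex, sex-linked transcripts were read beside these X-linked genes. Y-linked Uty, Eif2s3y, Ddx3y and Kdm5d averaged 25.9 to 62.4 CPM and had log2 fold changes of 0.15, 0.11, -0.07 and 0.08 in the authors' deposited table, none called by edgeR's test at an FDR of 0.05 (lowest FDR = 0.787) or with a raw p under 0.05. Xist, the RNA of the silenced X chromosome in females, averaged 0.260 CPM in that table and stood at 1.87 (FDR = 0.319), with a raw p of 0.0226.

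All 7 members lay above 10 CPM. Lrp2 averaged 546 CPM in the authors' deposited table, the 134th highest of all genes, Dab2 360, Lrpap1 266 and Cubn 168. Clcn5 and Amn averaged 88.1 and 88.0 CPM and Ocrl 27.3 CPM in that table, the lowest level of the set. Long transcripts collect more reads, and the annotated exons of the members sum to between 1.84 kb for Amn and 16.7 kb for Lrp2.

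Per kb of exons the order changed. Lrpap1 came first at 64.5 CPM per kb, then Dab2 at 49.1, Amn at 47.7, Lrp2 at 32.7, Cubn at 11.3, Clcn5 at 7.69 and Ocrl at 2.88. Amn thus moved from the sixth to the third place, and the Lrp2 level was 2.90 times that of Cubn per kb. The spread over libraries that would separate neighbours is unknown. The order was the same over the longest coding transcript of each gene, where the values ran from 5.20 CPM per kb (Ocrl) to 89.1 (Lrpap1). Dab2 and Amn, close together over all exons, stood at 77.2 and 51.7 CPM per kb there.

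**Figure D2:**
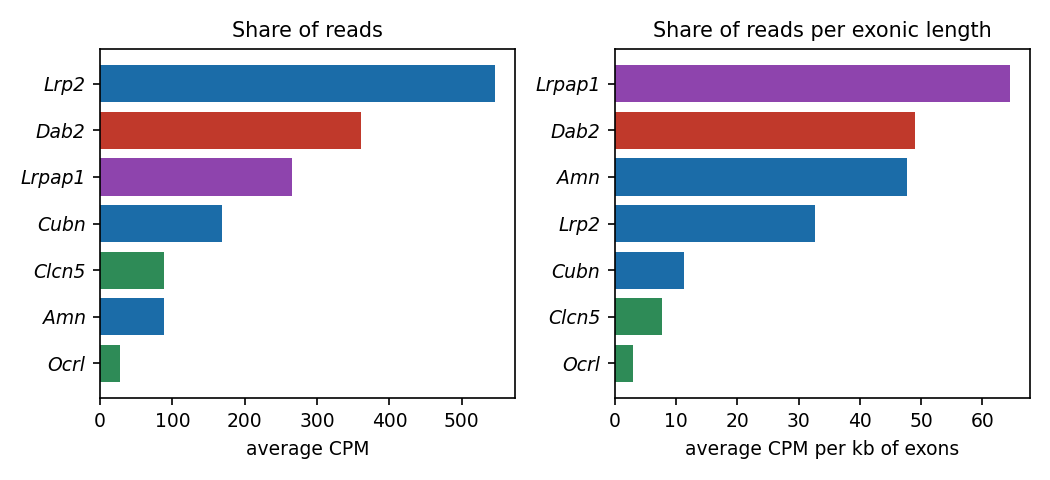
Average level of the member genes over the 6 libraries, in CPM (left) and in CPM per kb of annotated exons (right), bars coloured by role (blue receptor complex, red adaptor, green endosome, purple chaperone). Lrp2 has the longest bar on the left at 546 CPM and Lrpap1 on the right at 64.5 CPM per kb.

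Few bases of these genes could be confused with others at the read length of 50 nt. No stretch of 50 nt of Lrp2, Amn, Clcn5 or Lrpap1 transcripts occurs in transcripts of another gene. For Cubn 1.85% of stretches do, all in Gm13270, a processed transcript annotated on the opposite strand, for Dab2 2.14%, all in the pseudogene Gm18888 that lies across its locus, and for Ocrl 0.658%, spread over 219 genes. Neither Gm13270 nor Gm18888 is in the table, and the use of strand in counting is not stated.

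The error of the 2 large receptors was wide for their abundance. The approximate SE was 0.26 for Lrp2, larger than that of 97.1% of the 138 genes of like abundance, whose median was 0.15. For Cubn it was 0.24, larger than that of 98.9% of 1043 genes with a median of 0.13. The other members had SEs of 0.13 to 0.17, larger than that of between 22.3% (Ocrl) and 84.9% (Dab2) of genes of like abundance.

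At these errors, passing an FDR of 0.05 would have taken a level at least 44.8% lower in the knockout for Lrp2 and 42.5% for Cubn. For Amn, Clcn5 and Ocrl a level 25.1% to 25.4% lower would have been enough, for Lrpap1 28.4% and for Dab2 32.0%. Smaller differences would not have passed.

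**Figure D3:**
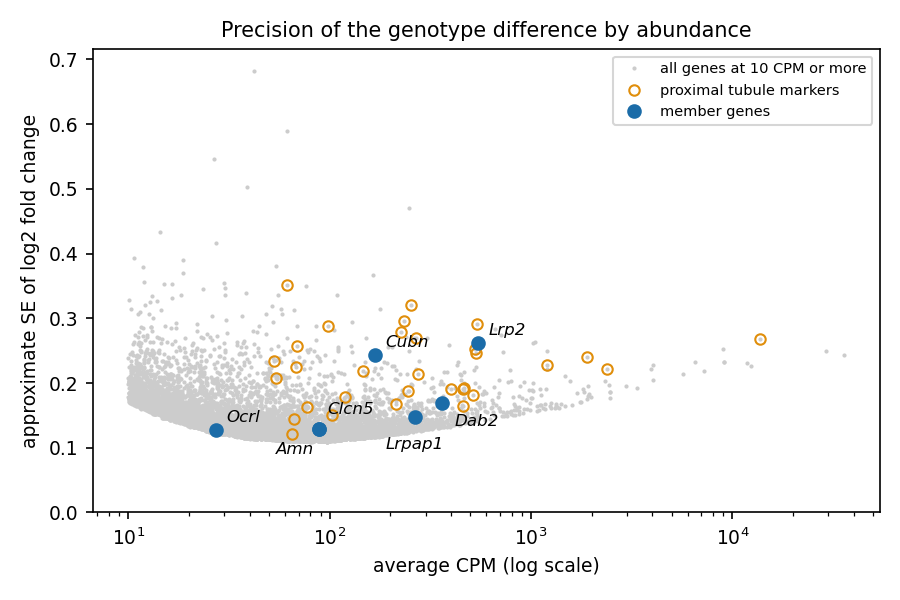
Approximate SE of the log2 fold change (y axis) against average CPM (x axis, log scale) for the 10712 genes at 10 CPM or more (grey), 31 proximal tubule markers (open circles) and the member genes (filled, labelled). Amn and Clcn5 share a place at 88 CPM. Lrp2 and Cubn lie high among genes of their abundance, with many of the proximal tubule markers, while the SEs of Amn, Clcn5 and Ocrl were 0.13.

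Wide errors were also seen in other proximal tubule genes. All 31 proximal tubule markers were measured, at 53.0 to 13646 CPM in the authors' deposited table, so the segment these genes are named for was present. Their median SE was 0.22, against 0.13 for all genes at 10 CPM or more. Of these markers 8 had a larger SE than Lrp2 and 11 a larger one than Cubn, but 30 a larger one than Amn, Clcn5 or Ocrl. In log2 fold change 28 of the 31 were below 0 with a median of -0.32, and 9 had a raw p under 0.05. All 9 were below 0, and 1 of them passed an FDR of 0.05 in edgeR's test. That was the gluconeogenic enzyme gene Pck1 (-1.05, FDR = 0.0224 in the authors' deposited table). Lrp2 had 10 of the 31 markers below it, Cubn 11, Lrpap1 22, Dab2 and Clcn5 25 each, Ocrl 26 and Amn 27.

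The coat and early endosome genes, which bring receptors in and send them back, showed no call. Of 20 genes of clathrin coats and adaptors none passed an FDR of 0.05 in edgeR's test and 1 had a raw p under 0.05, with a median log2 fold change of -0.02. That gene was Ap2a1, a subunit of the plasma membrane adaptor complex (-0.23, FDR = 0.445 in the authors' deposited table), on chromosome 7 like Dkk3. Next by p came the endocytic adaptor gene Epn2 (0.15) and the clathrin light chain gene Cltb (-0.11) in the authors' deposited table. Of 24 genes of early and recycling endosomes none passed or had a raw p under 0.05 in edgeR's test, their median was -0.03, and 17 were below 0. The smallest p were those of the recycling GTPase gene Rab11b (0.17, FDR = 0.695 in the authors' deposited table) and its effectors Rab11fip5 (0.17) and Rab11fip2 (-0.14).

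The proton pump that works beside the Clcn5 exchanger gave 1 called gene of 20. Atp6v1b1 fell by 0.71 (log2) in the authors' deposited table (FDR = 0.00103), a 1.63-fold lower level, and is a subunit known from intercalated cells of the collecting duct rather than from the proximal tubule. The list's median was -0.12, 16 of 20 were below 0 and 5 had a raw p under 0.05. Next in p were Atp6v1h (-0.27, FDR = 0.320) and Atp6v0d2 (-0.29, FDR = 0.342) in the authors' deposited table. Collecting duct markers moved with this gene, 7 of 13 falling and all 13 below 0 with a median of -0.52. With the genes of chromosome 7, which carries Dkk3, taken out of the count, 5 of them were called. The part of collecting duct cells in the pump values was not tested.

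Lysosomal genes, which serve the breakdown of the cargo, showed no call. Of 22 measured, 16 were above 0 with a median log2 fold change of 0.09, none passed an FDR of 0.05 in edgeR's test and 2 had a raw p under 0.05. These were the lysosomal membrane protein gene Scarb2 (0.27, FDR = 0.444) and the cystine exporter gene Ctns (0.25, FDR = 0.454) in the authors' deposited table. The third smallest p was that of Hexa (0.20, FDR = 0.637), a subunit gene of beta-hexosaminidase, in the authors' deposited table. Macrophages are rich in lysosomes too, and 15 of 17 macrophage markers lay above 0, whose part in these values was not tested.

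Among 14 genes of ligands and their handling 1 rose and none fell. Gc, the vitamin D binding protein that megalin takes up, stood at 0.40 (FDR = 0.0586) and Hpx, the heme carrier hemopexin, at 1.28 (FDR = 0.0731) in the authors' deposited table, Hpx at an average of only 0.929 CPM and on chromosome 7. The median of these 14 was 0.11, and 4 had a raw p under 0.05.

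The brush border scaffold, in which the receptors sit, lay below 0 with a median log2 fold change of -0.14 over 17 genes. None passed an FDR of 0.05 in edgeR's test, 3 had a raw p under 0.05 and 12 were below 0. The microvillar cadherin gene Cdhr2 (-0.47, FDR = 0.136), the scaffold gene Pdzk1 (-0.38, FDR = 0.425) and the scaffold gene Ush1c on chromosome 7 (-0.24, FDR = 0.469) came first by p in the authors' deposited table. Nuclear factors of the proximal tubule did not pass either. Of 8 measured, 7 were below 0 with a median of -0.11, and none had a raw p under 0.05 in edgeR's test. The bile acid receptor gene Nr1h4 (-0.20) and the vitamin D receptor gene Vdr (-0.12) came first by p in the authors' deposited table.

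Relatives of the members gave 1 call in 3 families. Of 14 other genes of the lipoprotein receptor family to which Lrp2 belongs none passed an FDR of 0.05 in edgeR's test and 1 had a raw p under 0.05. Their median was -0.04, and Lrp12 stood at -0.29 and Lrp4 at -0.27 in the authors' deposited table (FDR = 0.592 and 0.624). Of 10 chloride channel and exchanger genes and their partners other than Clcn5, 1 fell, Bsnd, which encodes barttin, known from the loop and distal nephron (-0.70, FDR = 0.00456 in the authors' deposited table). Of the 10 genes 8 were below 0, with a median of -0.14, and 4 had a raw p under 0.05. Of 10 inositol phosphatase genes related to Ocrl none passed an FDR of 0.05 in edgeR's test, 3 had a raw p under 0.05 and the median was 0.04. These 3 were Synj2 (0.46), the leukocyte gene Inpp5d (0.55) and Inppl1 on chromosome 7 (0.27) in the authors' deposited table, with FDRs of 0.254 to 0.307.

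Together the 10 pathway and family lists held 159 genes, of which 1 rose and 2 fell. That is 1.89% of them against 2.06% of all genes, and their median log2 fold change was -0.03. When the statistic was read on the F distribution (14 degrees of freedom) in place of chi-square, which allows for the few mice, none of the 3 was called (FDR = 0.0793 for Atp6v1b1 and 0.128 for Bsnd), nor was Pck1 (FDR = 0.202).

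**Figure D4:**
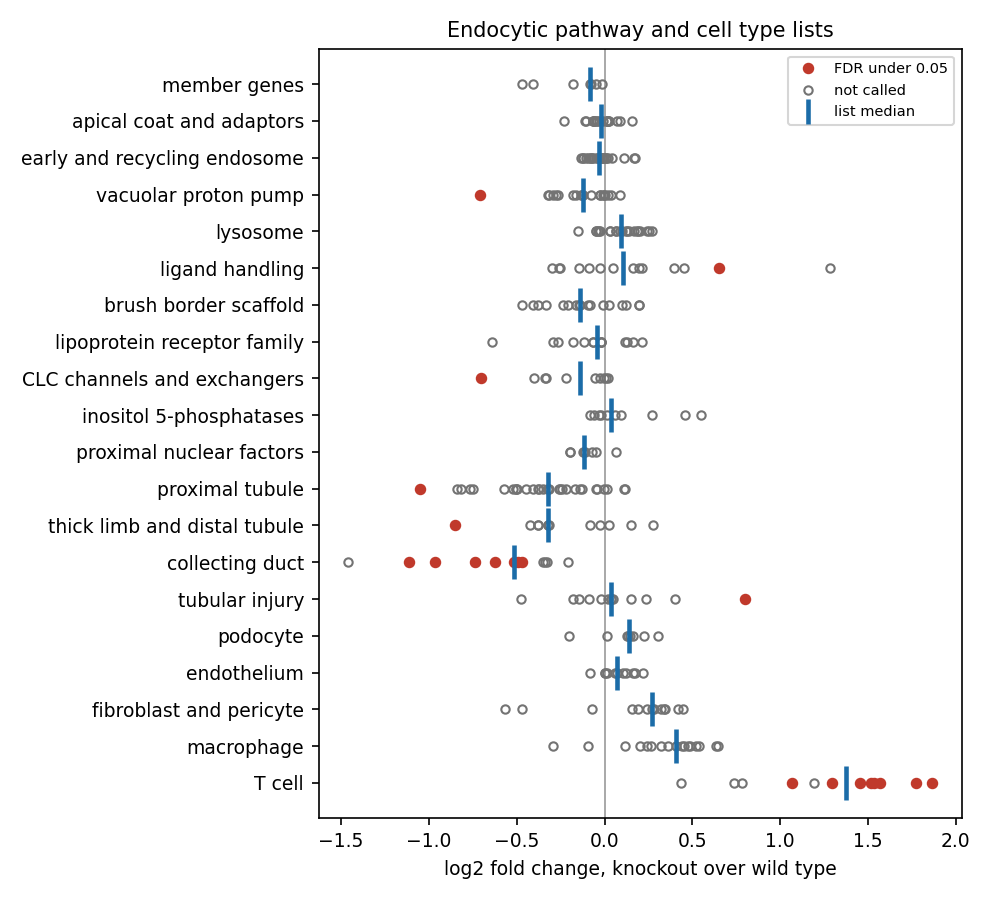
Log2 fold change, knockout over wild type (x axis), of the genes in each list (circles, filled red where the FDR was under 0.05) with the list's median (blue bar). The members' median of -0.08 lies between those of the coat genes (-0.02) and the proton pump (-0.12). The medians were -0.32 for proximal tubule, -0.52 for collecting duct and 1.38 for T cell markers.

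Cell type markers moved in both directions in the same kidneys. Of 12 T cell markers 8 rose, with a median log2 fold change of 1.38, among them Il7r (1.77), Cd3e (1.87), Cd3g (1.57) and Cd3d (1.52) in the authors' deposited table. Collecting duct genes that fell included the anion exchanger gene Slc26a4 (-1.11) and the water channel gene Aqp3 (-0.97) in the authors' deposited table. So did Hsd11b2 (-0.74) and, on chromosome 7 like Dkk3, the sodium channel subunit gene Scnn1g (-0.49) in that table. Without chromosome 7, whose genes such as Scnn1g then leave the count, 5 collecting duct genes were called in place of 7. Slc26a4, Aqp3 and Hsd11b2, on other chromosomes, stayed called in edgeR's test (FDR of 0.0136 or lower). Of 12 markers of the thick limb and distal tubule 1 fell, the calcium-binding protein gene Calb1 (-0.85, FDR = 0.0277 in the authors' deposited table), with a median of -0.32. Among 13 tubular injury genes 1 rose, the cell cycle inhibitor gene Cdkn1a (0.80, FDR = 4.18e-09 in the authors' deposited table), with a median of 0.04. With the F distribution 2 of the 8 T cell calls and 2 of the 7 collecting duct calls were left, and Calb1 was not called (FDR = 0.220).

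No marker of the remaining cell types passed an FDR of 0.05 in edgeR's test. The median log2 fold change was 0.27 for 13 fibroblast and pericyte markers, 4 of them at a raw p under 0.05, 0.07 for 11 endothelial and 0.14 for 8 podocyte markers, none at a raw p under 0.05. The first gene of each list by p was Tagln for fibroblasts and pericytes (0.44, FDR = 0.221), Cdh5 for endothelium (0.22, FDR = 0.817), Wt1 for podocytes (0.30, FDR = 0.610) and C1qb for macrophages (0.54, FDR = 0.0924) in the authors' deposited table. The part of such shifts in the member values was not tested.

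Gene Ontology terms of the same route were read in the authors' deposited table of 9062 terms, with 12 terms chosen by name after the table was seen. Receptor-mediated endocytosis held 139 genes, of which 3 were counted as rising and 1 as falling in the authors' deposited table. Endocytosis held 375, with 5 in each direction, and brush border 71, with 1 falling, in that table. Lysosome held 372, with 4 rising and 6 falling, in the same table. Each of these terms had an adjusted p of 1 in both directions in the authors' deposited table. Apical plasma membrane, a term not confined to the proximal tubule, held 231 genes with 2 rising and 15 falling. It was the 1 term of the 12 with an adjusted p under 0.05 there (1.41e-05 for falling genes in the authors' deposited table). No member passed an FDR of 0.05 in edgeR's test, and the genes behind the 15 were not identified here. Brush border membrane held 51 genes with 1 falling in the same table. Renal absorption held 10 genes with 2 falling (adjusted p = 0.274 in the authors' deposited table).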

How the data were processed

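Per the labels' protocols, whole-kidney RNA was sequenced from 1 end to 50 nt (HiSeq), 10 libraries to a pool, over 3 lanes. The build mm10 and edgeR are named, without a version, per the submitters' processing notes, and the sources used here do not give aligner, counter, strand or filters. The authors deposited, per the file headers, a log2 fold change and an average log2 CPM per gene, a likelihood-ratio score, and p-values, plain and adjusted. A second deposited sheet gives counts of genes per Gene Ontology term with p-values. The other 3 sheets list Wnt, Th1 and Th2 genes and were not used here.

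The p-value matched a chi-square distribution of the score, and the FDR the Benjamini-Hochberg value, within a relative 0.0001 for all 18421 genes. A count model needs values per sample, so the authors' edgeR test was taken as the main test. The labels call the samples biological replicates. The depth of each library is unknown. Intervals assume a normal distribution of the log2 fold change.

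Members, lists and tests were chosen with earlier results of these data known. Named genes are the members, Dkk3, in each pathway or family list the called genes and the 3 with the smallest p, in each marker list up to 4 called genes or else the 1 with the smallest p, and all sex-linked genes. Single values of some genes that this rule picks are left out here, and the counts of their lists include them. List symbols were matched on the listed symbol or the GENCODE vM21 name of the Ensembl identifier (18314 matched, 107 not). Positions are from GENCODE vM21 (GRCm38, the same assembly as mm10). Promoters are from RefSeq (GRCm38.p6), and all 7 members matched, with 9 windows. The calculations of the adjustment and of the SE quotient were checked on simulated data. How close the quotient comes to the SE of the fit itself was not tested, since that needs values per mouse. Alternatives were an FDR of 0.1, a fold of 1.5, genes at 1 CPM or more, the F distribution in place of chi-square (14 degrees of freedom, of which 4 residual and 10 assumed), an inflation factor of 1.09, centring on the median and leaving out chromosome 7. Python 3.11.15, pandas 2.3.3, numpy 2.4.6, scipy 1.17.1 and matplotlib 3.10.9 were used.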

Additional observations from a re-analysis of the deposited data

How the results depend on the processing

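No member was called under any of the 7 alternatives. A fold of at least 1.5, the F distribution and the inflation factor can only take calls away, so they could not have added a member. No member changed sign, but none could, since only centring on the median alters the fold changes and it lowers all of them. The adjusted p ran from 0.536 to 0.723 for Lrp2 and from 0.606 to 0.744 for Cubn, and was 0.757 or more for the other 5. With the F distribution's 14 degrees of freedom the interval of Lrp2 widened to -1.03 to 0.09 on the log2 scale. Calls among pathway and family genes rose from 3 to 6 at an FDR of 0.1 and went to 0 with the F distribution, which also left 5 of 18 calls among markers. Over all genes 379 calls became 578 at an FDR of 0.1, 81 with the F distribution and 242 without chromosome 7. Leaving out chromosome 7 also takes its own called genes out of the count. With the F distribution Scnn1g (FDR = 0.130), Hsd11b2 (0.155), Cd3g (0.0543) and Cd3d (0.0712) were no longer called, besides the genes given above, and Scnn1g was not called with a fold of at least 1.5 either. In all, 384 of 398 values of 58 named genes kept their side of the threshold, and 10 lost and 4 gained a call. None reversed, which only centring on the median could have brought about. Levels per kb over the longest coding transcript, an alternative chosen after seeing the data, were higher for all 7 members, in the same order. No paired analysis was possible because the files used hold no values per sample, and leaving out single mice was not run for the same reason. The difference needed for a call limits what could be seen, most for Lrp2 and Cubn.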
